A study of Mus musculus with 9 samples.

Results

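The 10 genes described here are Trp53, its negative regulators Mdm2, Mdm4 and Ppm1d, and 6 p53 target genes best known for growth arrest, namely Cdkn1a, Ccng1, Plk2, Plk3, Btg2 and Trp53inp1. They were chosen by symbol, and all 10 were found among the 30411 genes of the expression table. Their RNA was measured by poly(A) RNA-seq in HEI-OC1 cells, a line derived from the mouse auditory organ. The 3 groups were untreated cells, cells treated with H2O2, and cells first incubated with the nanoreactor HCS@Se and then treated with H2O2, with 3 libraries in each. The nanoreactor, also spelled HSC@Se by the submitters, is taken to be the agent that titles of the pretreated libraries call SCGS. It is an albumin particle carrying superoxide dismutase, catalase and a diselenide crosslinker that mimics glutathione peroxidase. The groups are called control, H2O2 and pretreated below. The labels give neither a dose nor a duration for H2O2 or the nanoreactor, and cells given the nanoreactor without H2O2 are not analysed here, so effects of the nanoreactor alone and of its combination with the oxidant cannot be told apart. HEI-OC1 cells come from a mouse that carries a temperature-sensitive simian virus large T antigen, a protein that binds p53, and the culture temperature is not given in the sources used here. All 3 groups share that background.

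p53, the product of Trp53, is a transcription factor that is kept low in unstressed cells because Mdm2, a ubiquitin ligase, marks it for degradation. Mdm2 is itself a p53 target, which closes a negative feedback loop, and Mdm4 binds p53 and blocks its activity without being a strong ligase. Stress kinases stabilise p53 mainly at the level of the protein, so that its activity is usually read from the RNA of its targets rather than from Trp53 RNA. The target Cdkn1a encodes p21, an inhibitor of cyclin-dependent kinases, and Ppm1d encodes Wip1, a phosphatase that removes activating phosphates from p53 and from the kinases upstream of it.

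The start regions of the genes are described here, and whether their letters relate to how far the RNA moved was not tested. Windows from 250 bases before to 50 bases after a start were taken from RefSeq on GRCm38.p6, where 9 of the 10 genes had 11 windows. Each was searched on both strands for the p53-binding decamer, the 10-letter element that occurs as a pair in a p53 site. A perfect decamer lay in 5 of the 11 windows (Trp53, Mdm2, Cdkn1a, Ccng1 and Ppm1d), against 8.36% of all 32851 windows. With 1 mismatch allowed, but not at the core C and G of the decamer, 8 of the 11 windows held one, against 50.9% of all windows. A paired site, with at most 1 mismatch in all, the core letters kept, and a spacer of 0 to 13 bases, lay in 2 of the 11 (Cdkn1a and Ccng1). It lay in 0.627% of all windows. The cyclic AMP response element TGACGTCA, which reads the same on both strands, lay in 3 of the 11 (Ppm1d, Plk2 and Btg2), against 1.79% of all. The paired-site limits and this element were chosen after the sequences had been seen, and a match is a description of letters, not of binding. Bases outside these windows, such as those further into a gene, were not searched. A window without a paired site therefore does not mean a gene without such a site. In the windows below, capitals mark perfect decamers, paired p53 sites and TGACGTCA.
Mdm2, chr10:117710709-117711008, minus strand: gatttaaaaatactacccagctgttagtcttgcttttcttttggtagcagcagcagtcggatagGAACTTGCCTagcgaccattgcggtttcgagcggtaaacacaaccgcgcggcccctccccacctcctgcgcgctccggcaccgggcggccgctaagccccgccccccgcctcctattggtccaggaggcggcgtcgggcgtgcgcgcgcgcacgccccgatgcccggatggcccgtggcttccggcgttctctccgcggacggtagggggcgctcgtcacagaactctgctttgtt
Cdkn1a, chr17:29090729-29091028, plus strand: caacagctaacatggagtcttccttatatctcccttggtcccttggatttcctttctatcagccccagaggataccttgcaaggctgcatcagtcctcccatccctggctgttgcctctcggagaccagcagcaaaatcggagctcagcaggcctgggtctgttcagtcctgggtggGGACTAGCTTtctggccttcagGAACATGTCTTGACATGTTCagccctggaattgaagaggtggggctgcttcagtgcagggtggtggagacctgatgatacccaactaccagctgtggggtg
Ccng1, chr11:40755237-40755536, minus strand: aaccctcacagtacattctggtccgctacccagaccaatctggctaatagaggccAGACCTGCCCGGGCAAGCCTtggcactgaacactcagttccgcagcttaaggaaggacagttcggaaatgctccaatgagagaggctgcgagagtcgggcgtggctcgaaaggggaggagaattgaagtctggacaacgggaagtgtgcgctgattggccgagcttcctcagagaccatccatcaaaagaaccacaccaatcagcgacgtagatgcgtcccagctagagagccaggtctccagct
Ppm1d, chr11:85311004-85311303, plus strand: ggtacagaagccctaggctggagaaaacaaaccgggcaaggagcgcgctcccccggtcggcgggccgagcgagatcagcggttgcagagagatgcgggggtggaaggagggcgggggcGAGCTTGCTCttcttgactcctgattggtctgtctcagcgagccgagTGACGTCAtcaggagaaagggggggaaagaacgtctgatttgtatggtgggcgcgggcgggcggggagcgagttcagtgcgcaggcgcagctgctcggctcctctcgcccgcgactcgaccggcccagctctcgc
Plk2, chr13:110394794-110395093, plus strand: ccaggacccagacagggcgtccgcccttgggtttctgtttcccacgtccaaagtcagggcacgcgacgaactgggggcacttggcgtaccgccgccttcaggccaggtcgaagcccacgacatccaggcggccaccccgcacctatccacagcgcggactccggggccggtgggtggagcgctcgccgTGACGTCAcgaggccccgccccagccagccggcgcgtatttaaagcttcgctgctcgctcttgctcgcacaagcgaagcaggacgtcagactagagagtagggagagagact
Btg2, chr1:134079106-134079405, minus strand: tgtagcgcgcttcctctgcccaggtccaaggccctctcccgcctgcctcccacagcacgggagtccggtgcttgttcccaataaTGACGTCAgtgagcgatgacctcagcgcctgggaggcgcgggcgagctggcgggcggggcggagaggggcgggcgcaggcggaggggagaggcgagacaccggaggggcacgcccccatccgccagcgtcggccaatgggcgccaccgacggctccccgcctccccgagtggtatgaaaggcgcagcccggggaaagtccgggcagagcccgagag
The Cdkn1a window, at the upstream of its annotated starts, held the paired site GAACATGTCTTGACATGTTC beginning at position -51, whose first decamer was also the end of a spaced pair beginning at -73. The window at the downstream Cdkn1a start held none of the marked elements. The Ccng1 window held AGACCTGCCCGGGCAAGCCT beginning at -195. The single Mdm2 decamer began at -186 and the single Ppm1d decamer at -132. TGACGTCA began at -62 in Plk2, -85 in Ppm1d and -166 in Btg2. The windows of Mdm4 and Plk3 held none of the marked elements and are not shown. That of Trp53, which held a decamer beginning at -75, is also not shown, and Trp53inp1 is the gene without a window.

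The libraries held 55395418 to 67215208 deposited counts each. Counts of mitochondrially encoded genes made up 2.59% to 2.73% of control libraries, 1.01% of H2O2 libraries and 0.879% to 0.91% of pretreated libraries. Genes with at least 1 count numbered 20102 to 20741, 20502 to 20920 and 24043 to 24141 in the same order. The mitochondrial share did not overlap between any of the groups. Gene numbers overlapped between control and H2O2 libraries and were higher in all pretreated ones. The part of these library differences in the results below was not tested. None of 10 hair cell markers reached 1 FPKM in control cells on average, with Atoh1, Slc26a5, Tmc1, Calb2 and Pvalb at 0 in all groups and the sum of the list between 0.0137 and 0.453 FPKM in every library. Of 8 supporting cell markers 5 reached 1 FPKM in control cells, with Sox2 and Prox1 at 0, whereas 7 of 8 mesenchymal markers did. None of 6 epithelial markers reached it, and only 1 of 6 immune markers (Csf1r) and 1 of 6 glial and neuronal markers (Tubb3) did. The mesenchymal sum was 1.21e+03 to 1.22e+03 FPKM in control, 1.18e+03 to 1.19e+03 in H2O2 and 1.02e+03 to 1.03e+03 in pretreated libraries. The immune sum was 2.27 to 2.59, 3.84 to 5.17 and 5.5 to 5.93 FPKM in the same order, with Ptprc and Cd3e at 0. Mean FPKM was 0.897, 3.05 and 3.54 for Cd68 and 1.4, 1.44 and 1.58 for Csf1r. The mesenchymal genes moved differently from their sum. In the same order, mean FPKM was 577, 781 and 585 for Vim and 251, 149 and 255 for Fn1. Other members fell at each step, with Col1a1 at 227, 154 and 128, Col1a2 at 35.2, 26 and 12.2, and Col3a1 at 61.9, 43.8 and 30.8. Pdgfrb stood at 59.3, 32 and 10.1, and Pdgfra at 5.38, 2.84 and 0.945. The supporting cell sum was 42.7 to 45.2, 42.6 to 44.7 and 22.3 to 23.7 FPKM. Its largest part was Cdkn1b, at mean FPKM of 27.4, 25 and 11. Lfng (5.36, 3.31 and 1.14) and Jag1 (1.69, 1.4 and 0.913) also fell. S100a1 (8.8, 13.3 and 8.85) and Fgfr3 (1.03, 0.912 and 1.15) did not fall from control to pretreated cells. By these lists the cells carried mesenchymal markers and not the defining markers of hair cells.

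H2O2 alone raised Cdkn1a and Btg2 by more than 2-fold, raised 5 other members by smaller factors, and left Mdm2 and Ppm1d without a call. Mdm4 was called lower, a direction that turned with offsets for length, with or without GC content. A call is a Benjamini-Hochberg adjusted p under 0.05 over the 18092 genes tested with edgeR's quasi-likelihood test, and all 10 members passed the filter on low counts. Of the 10, 7 were called higher, against 24.6% of all genes tested, and 1 was called lower, against 24.1%. Of the 10, 2 were called at least 2-fold higher, against 2.68%. The H2O2 and control libraries did not overlap for 8 members, against 55.9% of all genes. The median log2 fold change of the members was 0.40, against 0.015 over all genes. Levels are given as the authors' FPKM, fragments scaled by gene length and library depth, for replicates 1, 2 and 3, and fold changes come from the counts. Nothing in the labels says that the replicates were separate cultures, so p-values measure the spread between these libraries, which may be technical. In these bulk libraries fewer cells with a transcript and less of it per cell cannot be told apart.

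Trp53 itself (ENSMUSG00000059552, chr11:69580359-69591873, GRCm38, plus strand) stood at 59.8, 61.0 and 59.1 FPKM in control and at 77.0, 78.3 and 76.9 FPKM in H2O2 libraries. All H2O2 libraries lay above all control libraries. The log2 fold change was 0.38 with an SE of 0.0241 (1.3-fold, adjusted p = 4.17e-08, edgeR), so the RNA of p53 rose slightly.

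Of the negative regulators, Mdm2 (ENSMUSG00000020184, chr10:117688875-117710758, minus strand) stood at 11.8, 12.0 and 12.0 FPKM in control and at 12.6, 12.2 and 12.2 FPKM in H2O2 libraries. The H2O2 libraries lay narrowly above the control libraries, and the log2 fold change of 0.06 (95% interval 0.01 to 0.10, unadjusted) was not called (adjusted p = 0.083, edgeR). With offsets for length it was 0.15 and called (adjusted p = 0.000119, edgeR). With offsets for length and GC content it was -0.01 and not called (adjusted p = 0.821, edgeR). Mdm4 (ENSMUSG00000054387, chr1:132959484-133025354, minus strand) stood at 3.66, 3.66 and 3.55 FPKM in control and at 3.08, 2.88 and 3.01 FPKM in H2O2 libraries. All H2O2 libraries were lower, with a log2 fold change of -0.26 (SE 0.0373, adjusted p = 6.01e-05, edgeR). This direction turned with offsets for length, to 0.24 (adjusted p = 0.000119), and with offsets for length and GC content, to 0.16 (adjusted p = 0.00275), so no direction is given for Mdm4 here beyond that of the unadjusted counts. Mdm4 had the longest exon length of the 10 genes, 14798 bases over all annotated transcripts against 7105 in its longest one, which lowers its FPKM. Ppm1d (ENSMUSG00000020525, chr11:85311244-85347066, plus strand) stood at 9.0, 8.64 and 7.81 FPKM in control and at 7.89, 6.62 and 8.11 FPKM in H2O2 libraries. The groups overlapped and the log2 fold change of -0.16 (95% interval -0.32 to 0.00) was not called (adjusted p = 0.136, edgeR). With the offsets it was -0.25 or -0.26 and was called lower, with adjusted p = 0.024 and 0.0222.

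**Figure D1:**
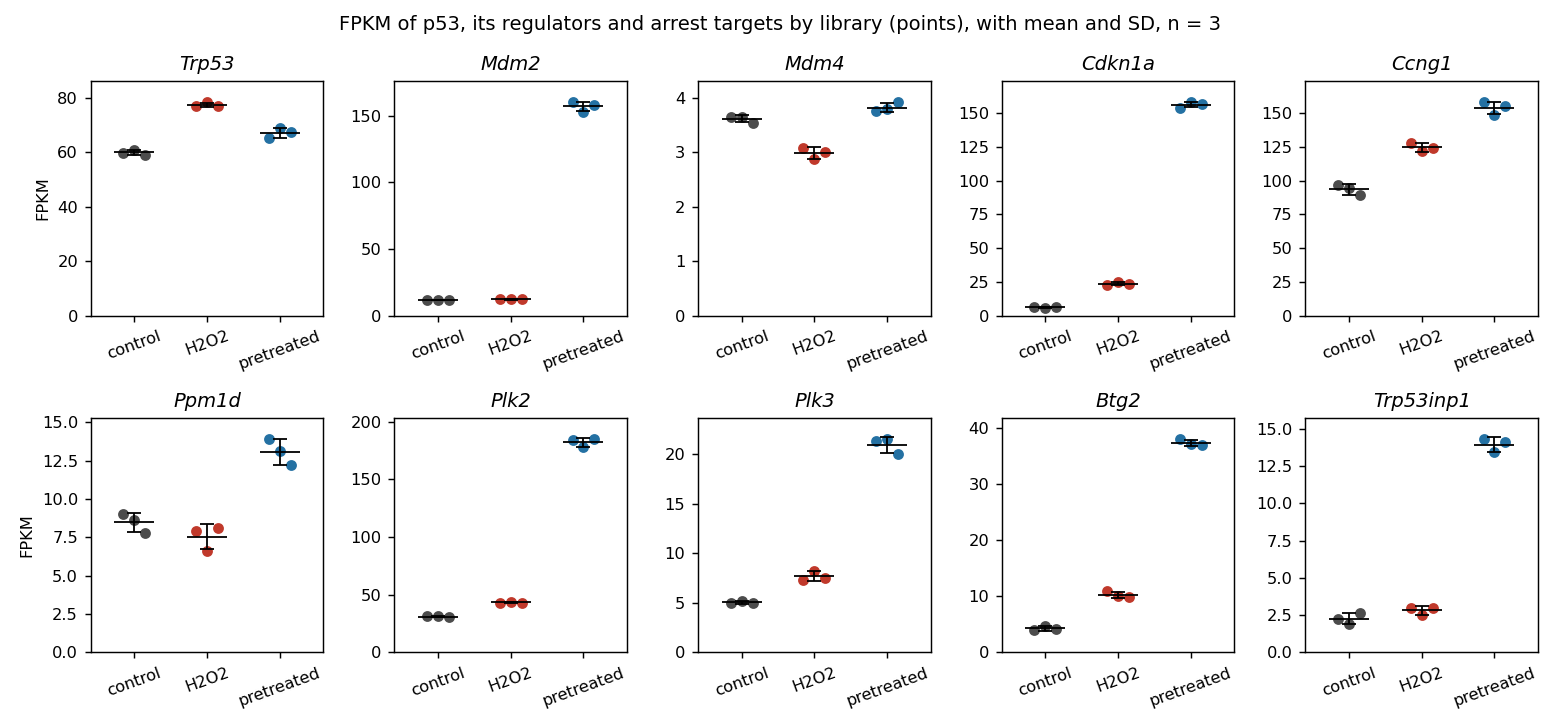
FPKM (y axis, from 0, with its own range for each gene) of the 10 genes in each library (points) of the control, H2O2 and pretreated groups (x axis), with the mean and SD of 3 libraries (bars). Mdm2 was at 11.8 to 12.6 in all control and H2O2 libraries and at 153 to 160 in the pretreated ones, whereas Cdkn1a stepped up in both treated groups.

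Among the arrest targets, Cdkn1a (ENSMUSG00000023067, chr17:29090976-29100727, plus strand) moved furthest, from 6.13, 6.02 and 6.80 FPKM in control to 22.4, 24.8 and 23.6 FPKM in H2O2 libraries. The log2 fold change was 1.91 (SE 0.0472, 3.77-fold, adjusted p = 1.22e-11, edgeR), larger than that of 96.6% of the genes tested. Btg2 (ENSMUSG00000020423, chr1:134075170-134079120, minus strand), which encodes an antiproliferative cofactor of mRNA deadenylation, went from 3.98, 4.78 and 4.13 to 10.9, 10.1 and 9.82 FPKM. Its log2 fold change was 1.27 (SE 0.0636, 2.41-fold, adjusted p = 4.98e-09, edgeR). Both genes had every H2O2 library above every control library.

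The polo-like kinases of the set, which act in stress responses rather than in mitosis like Plk1, rose less. Plk2 (ENSMUSG00000021701, chr13:110395046-110400844, plus strand) stood at 31.5, 31.2 and 30.6 FPKM in control and at 43.2, 43.9 and 43.2 FPKM in H2O2 libraries. Plk3 (ENSMUSG00000028680, chr4:117128655-117133963, minus strand) stood at 5.01, 5.17 and 4.93 FPKM in control and at 7.30, 8.24 and 7.48 FPKM in H2O2 libraries. Neither gene's groups overlapped, and the log2 fold changes were 0.49 (SE 0.0227, adjusted p = 2.37e-09) for Plk2 and 0.62 (SE 0.0616, adjusted p = 2.64e-06, edgeR) for Plk3. Ccng1 (ENSMUSG00000020326, chr11:40748552-40755311, minus strand) encodes cyclin G1, which recruits a phosphatase to Mdm2. It stood at 97.1, 94.8 and 89.1 FPKM in control and at 128, 122 and 124 FPKM in H2O2 libraries, without overlap (log2 fold change 0.43, SE 0.0329, adjusted p = 2.52e-07, edgeR). Trp53inp1 (ENSMUSG00000028211, chr4:11156431-11174379, plus strand) encodes a p53-induced nuclear protein with roles in arrest, death and autophagy. It stood at 2.27, 1.92 and 2.61 FPKM in control and at 2.95, 2.49 and 3.00 FPKM in H2O2 libraries, and the groups overlapped. Its log2 fold change of 0.32 (SE 0.097, adjusted p = 0.0154, edgeR) lost its call without control replicate 2 (0.21, adjusted p = 0.0658), without H2O2 replicate 1 (0.29, adjusted p = 0.0554) and without H2O2 replicate 3 (0.27, adjusted p = 0.065). It was 0.71 with offsets for length and GC content.

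Cdkn1a and Plk3 overlap other annotated genes. Cdkn1a shares 273 exonic bases with AC167363.2 on the opposite strand, which had a mean count of 82.22 against 1.544e+04 for Cdkn1a. Plk3 shares 84 exonic bases with Tctex1d4 on the opposite strand, which had a mean count of 5 against 1970. The libraries were strand-specific per the labels, but whether counting used the strand is not given in the sources used here, so reads in the shared bases may belong to either gene.

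Pretreated cells exposed to H2O2 had far more RNA of Mdm2 and of most arrest targets than cells given H2O2 alone, and slightly less Trp53 RNA. Of the 10 genes, 9 were called higher, against 32.4% of all genes tested, and Trp53 was called lower, against 31.3%. At least 2-fold higher were 6 of the 10 (Mdm2, Cdkn1a, Plk2, Plk3, Btg2 and Trp53inp1), against 15.5% of all genes. The groups overlapped for none of the 10, while 69.7% of all genes had no overlap. The median log2 fold change was 1.69, against 0.019 over all genes. The H2O2 libraries also serve in the comparison with control, so the 2 sets of fold changes are not independent.

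Mdm2 showed the largest rise of the 10, to 160, 153 and 158 FPKM in pretreated libraries from 12.6, 12.2 and 12.2 FPKM with H2O2 alone. The log2 fold change was 3.70 (SE 0.0257, 13-fold, adjusted p = 1.88e-16, edgeR), larger than that of 94.6% of the genes tested, and it lay between 3.57 and 3.77 in all 22 alternatives. Trp53 RNA stood at 65.1, 68.9 and 67.4 FPKM in pretreated libraries, all below the 76.9 to 78.3 FPKM of the H2O2 libraries (log2 fold change -0.17, SE 0.024, adjusted p = 3.68e-05, edgeR). The transcript of p53 and that of its main ligase thus moved in opposite directions in this comparison.

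The other regulators rose moderately. Mdm4 stood at 3.76, 3.79 and 3.92 FPKM in pretreated libraries, all above the H2O2 libraries, with a log2 fold change of 0.38 (SE 0.0372, adjusted p = 1.59e-06, edgeR) that was as low as 0.16, and still called, with offsets. Ppm1d stood at 13.9, 13.1 and 12.2 FPKM, again without overlap, with a log2 fold change of 0.82 (SE 0.0816, 1.77-fold, adjusted p = 1.93e-06, edgeR). Neither rise was close to that of Mdm2.

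Cdkn1a reached 154, 158 and 157 FPKM in pretreated libraries, a log2 fold change of 2.75 over H2O2 alone (SE 0.0442, 6.74-fold, adjusted p = 1.41e-13, edgeR). Trp53inp1 reached 14.3, 13.4 and 14.1 FPKM (log2 fold change 2.34, SE 0.095, 5.05-fold, adjusted p = 4.89e-10, edgeR). The pretreated libraries of both genes were well apart from the other groups. Plk2 reached 184, 178 and 185 FPKM (log2 fold change 2.10, SE 0.023, 4.28-fold, adjusted p = 4.46e-15, edgeR). Btg2 reached 38.1, 37.2 and 37.1 FPKM (log2 fold change 1.90, SE 0.0598, 3.73-fold, adjusted p = 4.31e-11, edgeR). Plk3, at 21.3, 21.5 and 20.0 FPKM, rose less than its paralog Plk2 in log2 fold change (1.48, SE 0.0601, adjusted p = 4.94e-10, edgeR), although a test between the 2 genes was not made. Ccng1, the most abundant member in control cells, rose to 158, 149 and 155 FPKM (log2 fold change 0.33, SE 0.0327, adjusted p = 1.73e-06, edgeR).

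**Figure D2:**
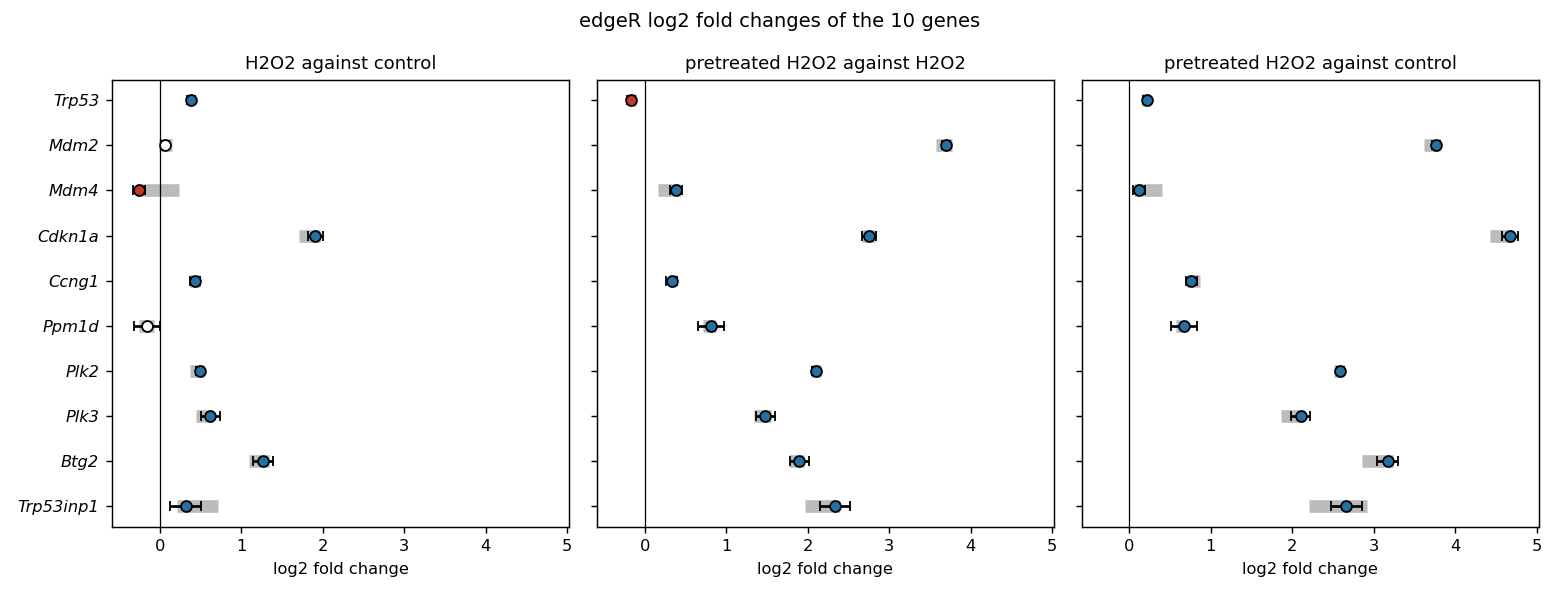
Log2 fold changes (x axis) of the 10 genes (y axis) in the 3 comparisons, with 95% intervals (black bars), the range over 22 alternatives (grey bars) and calls at adjusted p under 0.05 (blue higher, red lower, open not called). Mdm2 lay at 0.06 with H2O2 alone and at 3.70 after pretreatment, and the grey bar of Mdm4 crosses 0 in the comparison of H2O2 with control.

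Against untreated cells, all 10 genes were called higher in pretreated cells, against 33.7% of all genes tested, and none was called lower, against 29.5%. The same 6 genes as in the comparison with H2O2 alone were at least 2-fold higher, against 14.8% of all genes. The libraries did not overlap for any of the 10, against 68.9% of all genes, and the median log2 fold change was 2.34 against 0.063. The p21 gene Cdkn1a was highest, at 25.4-fold (log2 fold change 4.67, SE 0.0497, adjusted p = 2.83e-15, edgeR), followed by Mdm2 at 13.5-fold (log2 fold change 3.76, SE 0.0258, adjusted p = 1.4e-16). Btg2 was 8.98-fold higher, Trp53inp1 6.31-fold, Plk2 6.03-fold and Plk3 4.28-fold. Ccng1 was 1.69-fold and Ppm1d 1.59-fold higher, and Trp53 only 1.15-fold (log2 fold change 0.21, SE 0.0241, adjusted p = 9.13e-06, edgeR). Mdm4 had a log2 fold change of 0.12 (SE 0.0371, adjusted p = 0.0139, edgeR). It lost its call without control replicate 3 and without pretreated replicate 3 (0.10 each, adjusted p = 0.0659 and 0.0593), with scaling by total counts alone (0.08) and with limma on FPKM (0.06 to 0.07), and was larger, at 0.40 and 0.36, with offsets for length and for length and GC content, where Trp53 was at 0.20 and 0.18.

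The order of the levels per length, in FPKM, also changed, and where Mdm4 stands in it depends on the exon length used. In control cells the order of mean FPKM was Ccng1 (93.7), Trp53 (60.0), Plk2 (31.1), Mdm2 (12.0), Ppm1d (8.48), Cdkn1a (6.32), Plk3 (5.04), Btg2 (4.30), Mdm4 (3.63) and Trp53inp1 (2.27), and no 2 neighbours overlapped. In H2O2 cells the order of mean FPKM was Ccng1 (125), Trp53 (77.4), Plk2 (43.4), Cdkn1a (23.6), Mdm2 (12.3), Btg2 (10.2), Plk3 (7.67), Ppm1d (7.54), Mdm4 (2.99) and Trp53inp1 (2.81). The libraries of Plk3 and Ppm1d, and those of Mdm4 and Trp53inp1, overlapped there. In pretreated cells Plk2 led at 182 FPKM, followed by Mdm2 (157), Cdkn1a (156) and Ccng1 (154), and Mdm2 overlapped with Cdkn1a as Cdkn1a did with Ccng1. Trp53 (67.1), Btg2 (37.4), Plk3 (20.9), Trp53inp1 (13.9), Ppm1d (13.1) and Mdm4 (3.82) came below these, with Trp53inp1 and Ppm1d overlapping. Trp53 thus stood below Ccng1 but above the other 8 in control and H2O2 cells, and below 4 of its targets in pretreated cells.

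Mdm2 was also set against p53, Mdm4 and p21 as ratios of FPKM within a library. Mdm2 RNA was 0.197, 0.197 and 0.204 times the Trp53 level in control libraries, 0.163, 0.156 and 0.159 times in H2O2 libraries, and 2.45, 2.22 and 2.35 times in pretreated libraries. The H2O2 libraries were lowest and the pretreated ones highest, without overlap. The ratio of Mdm2 to Mdm4 was 3.30 ± 0.0852 in control, 4.12 ± 0.0952 in H2O2 and 41.1 ± 1.17 in pretreated cells (SD, n = 3). The log2 difference of this ratio between H2O2 and control, 0.32, turned to -0.17 with offsets for length and GC content and to -0.09 with offsets for length, as Mdm4 did, so no direction is given for it. With H2O2 alone the log2 fold changes were 0.06 for Mdm2, 0.38 for Trp53 and 1.91 for Cdkn1a, so the lower ratios to these genes came with higher Trp53 and Cdkn1a. The ratio of Mdm2 to Cdkn1a was 1.90 ± 0.114 in control, 0.523 ± 0.0346 in H2O2 and 1.01 ± 0.0326 in pretreated cells (SD, n = 3) and was thus lowest with H2O2 alone. The pretreated-to-H2O2 ratio of ratios was 14.7-fold for Mdm2 to Trp53, 9.97-fold for Mdm2 to Mdm4 and 1.93-fold for Mdm2 to Cdkn1a. Each of the 9 comparisons of these ratios had a two-sided exact permutation p = 0.1, also after adjustment over the 9, which is the smallest that 3 libraries against 3 allow.

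**Figure D3:**
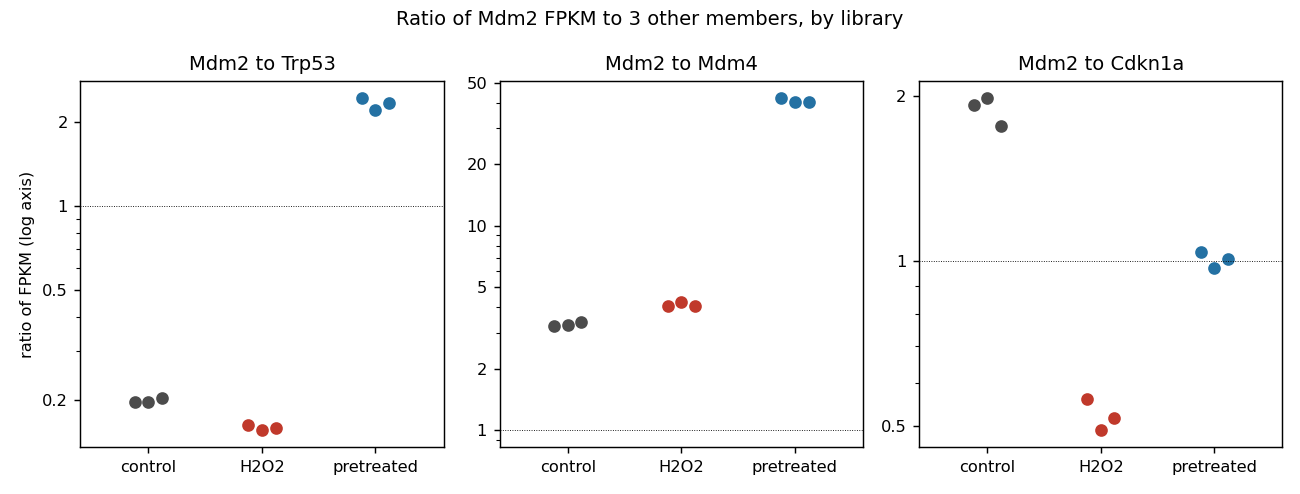
Ratio of Mdm2 FPKM to Trp53, Mdm4 and Cdkn1a FPKM (y axes, logarithmic) in each library (points) of the 3 groups (x axis), with a dotted line at equal levels. Mdm2 was at 0.156 to 0.204 times Trp53 in control and H2O2 libraries and at 2.22 to 2.45 times in pretreated ones.

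Other p53 targets were read from lists that were not picked by how their genes moved, though chosen with earlier results of these data known. The genes named are those that moved most, up to 2 upwards and 2 downwards per list and comparison, among called genes of at least 1 CPM (counts scaled by library size), and values are mean CPM. The list counts are to be read against all genes tested, of which 24.6% were called higher and 24.1% lower with H2O2 (median 0.015), 32.4% and 31.3% in pretreated against H2O2 cells (median 0.019), and 33.7% and 29.5% in pretreated against control cells (median 0.063). Of 13 targets that promote apoptosis and were tested, 7 were called higher and 2 lower with H2O2 alone, with a median log2 fold change of 0.30. In pretreated against H2O2 cells 9 of these death targets were called higher and 3 lower (median 0.66), and in pretreated against control cells 11 higher and 1 lower (median 1.00).

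The named death targets moved both ways. Bax, an executioner at the mitochondrial membrane, rose from 85.8 ± 4.40 to 140 ± 5.76 CPM with H2O2 (SD, n = 3; log2 fold change 0.71, adjusted p = 2.69e-08, edgeR), and Siva1 by 0.70 on the log2 scale. With offsets for length and GC content Siva1 was at 0.37 and Bax at 0.48, both still called (adjusted p = 0.000286 and 1.23e-07, edgeR). Zmat3 and Apaf1, the latter the scaffold of the apoptosome, fell by 0.38 and 0.45 on the log2 scale, but with offsets for length and GC content Zmat3 stood at 0.08 and Apaf1 at -0.08, neither of them called (adjusted p = 0.0783 and 0.307, edgeR). Bbc3, which encodes the BH3-only protein PUMA, stood at 4.16 CPM in control and 4.80 in H2O2, and rose to 28.5 in pretreated cells (5.92-fold over H2O2, adjusted p = 1.4e-08, edgeR). Zmat3 then rose from 68.9 CPM in H2O2 to 188 in pretreated cells, and Phlda3, an inhibitor of Akt, was 3.5-fold higher than in control. Bid, another BH3-only gene, was 2.17-fold lower in pretreated than in control cells and 2.4-fold lower than with H2O2 alone, the largest fall of this list, and Siva1 was 1.33-fold lower than with H2O2 alone (log2 fold change -0.42, and -0.26 with offsets for length and GC content).

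Of 15 repair, stress and metabolism targets, 7 were called higher and 2 lower with H2O2 (median 0.12), 6 higher and 7 lower in pretreated against H2O2 cells (median 0.01), and 8 higher and 4 lower in pretreated against control cells (median 0.23). In pretreated against H2O2 cells 40% of this list was called higher and 46.7% lower, with a median close to the 0.019 of all genes. Gdf15, a secreted stress cytokine, stood at 0.998, 2.93 and 55.3 CPM in control, H2O2 and pretreated cells, and was called in each comparison (18.8-fold higher in pretreated than in H2O2 cells, adjusted p = 1.8e-10, edgeR). Sesn2, a stress-induced inhibitor of mTORC1, stood at 19.7, 21.6 and 400 CPM in the same order. Gadd45a, a growth arrest and DNA damage gene, was 2.83-fold higher with H2O2 (adjusted p = 5.03e-09, edgeR). In contrast Sesn1, the paralog of Sesn2, fell from 21.6 CPM in control to 17.2 in H2O2 and 8.02 in pretreated cells, and Pank1, a kinase of coenzyme A synthesis, from 23.4 to 17.5 and 7.51 CPM. The step from control to H2O2 lost its call with offsets for length and GC content in both genes (-0.24 for Sesn1, adjusted p = 0.0969, and 0.02 for Pank1, adjusted p = 0.929), and in Sesn1 also without any 1 of control replicates 1 to 3 or H2O2 replicates 2 and 3 (adjusted p = 0.05 to 0.0941). The p53 targets of this list thus included both the large rises and falls of more than 2-fold in pretreated cells.

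**Figure D4:**
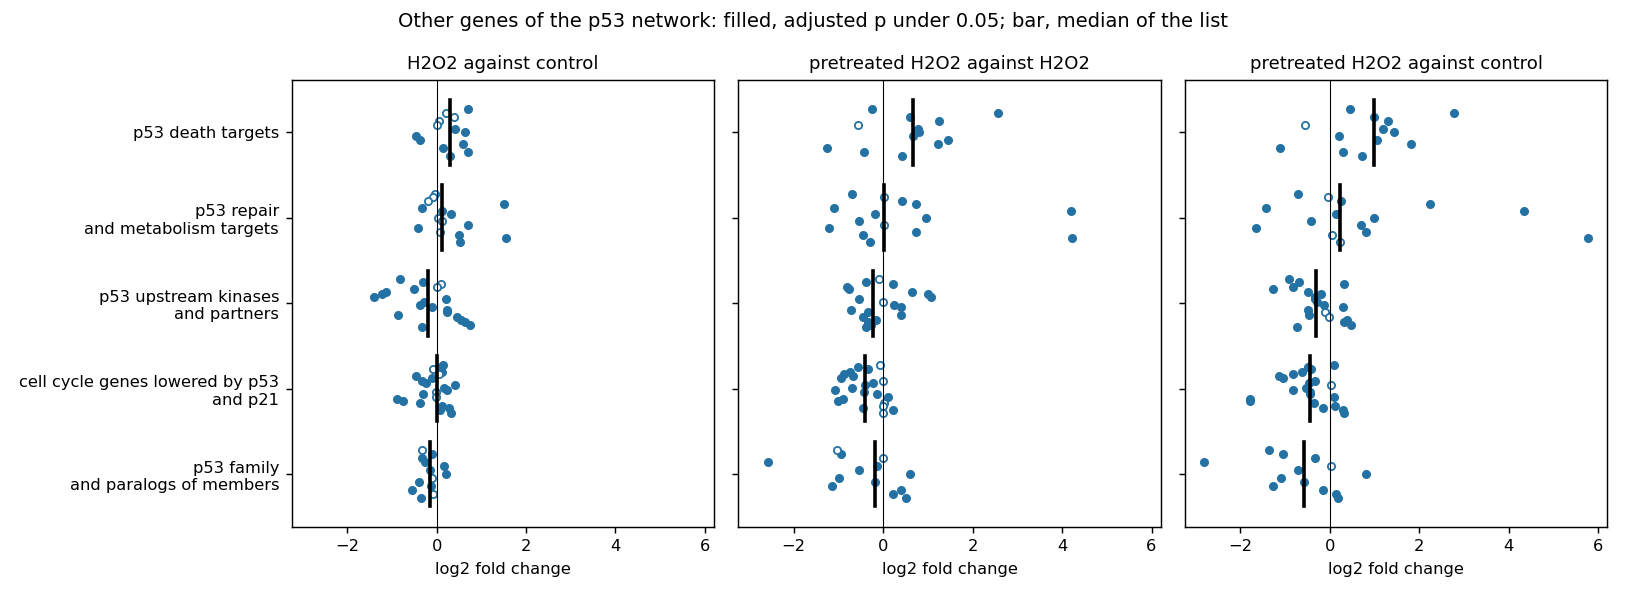
Log2 fold changes (x axis) of the tested genes of 5 lists of the p53 network (y axis) in the 3 comparisons, each point a gene (filled, adjusted p under 0.05) and each bar the median of its list. The median of the death targets moved from 0.30 with H2O2 to 1.00 for pretreated against control cells, and that of the cell cycle genes from 0.02 to -0.44.

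Of 20 kinases, acetylases, ligases and ribosomal proteins that act on p53 or Mdm2, 7 were called higher and 11 lower with H2O2 (median -0.19), 7 and 11 in pretreated against H2O2 cells (median -0.22), and 5 and 13 in pretreated against control cells (median -0.30). The share of upstream genes called higher in pretreated against H2O2 cells, 35%, was near the 32.4% of all genes, and 55% were called lower, against 31.3%. Of these upstream genes, Crebbp and Ep300, the acetyltransferases that acetylate p53, fell 2.62-fold and 2.32-fold with H2O2 (adjusted p = 3.85e-11 and 1.17e-11, edgeR). They stood at 76.7 and 131 CPM in control, 29.3 and 56.3 in H2O2, and 61.5 and 113 in pretreated cells. With offsets for length and GC content the log2 fold changes with H2O2 shrank from -1.39 to -0.77 for Crebbp and from -1.21 to -0.65 for Ep300, both still called. The count of upstream genes called lower with H2O2 was 7 instead of 11 with these offsets and 6 with those for length. Rpl23 and Rpl11, ribosomal proteins that bind Mdm2, were 1.68-fold and 1.56-fold higher with H2O2. Their log2 fold changes of 0.75 and 0.64 were 0.36 and 0.30 with offsets for length and GC content, both still called (adjusted p = 3.57e-08 and 4.4e-05, edgeR). Rpl23 and Rpl5 were 1.39-fold and 1.31-fold higher in pretreated than in control cells. The DNA damage kinases Prkdc and Chek2 were 1.71-fold and 1.75-fold lower in pretreated than in H2O2 cells, and Prkdc and Atm were 2.42-fold and 1.89-fold lower than in control cells.

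Of 22 cell cycle genes that p21 and the DREAM complex are known to lower, 10 were called higher and 8 lower with H2O2 (median 0.02), whereas 2 were called higher and 15 lower in pretreated against H2O2 cells (median -0.41), and 5 higher and 16 lower in pretreated against control cells (median -0.44). The proliferation marker Mki67 stood at 486 ± 11 CPM in control, 287 ± 5.95 in H2O2 and 143 ± 0.16 in pretreated cells (SD, n = 3), and was called lower at each step. The log2 fold change of Mki67 with H2O2 was -0.76, and -0.20 with offsets for length and GC content (adjusted p = 3.88e-06, edgeR). With these offsets 5 instead of 10 cell cycle genes were called higher with H2O2. Cenpf, a kinetochore protein, went from 123 to 66.3 and 35.5 CPM, and its log2 fold change with H2O2 of -0.89 was -0.28 with offsets for length and GC content and -0.37 with those for length. Aurka, a mitotic kinase, was 2.1-fold lower in pretreated than in H2O2 cells. With H2O2, Birc5 was 1.34-fold higher. Mybl2 was 1.07-fold higher in pretreated than in H2O2 cells, a call that was lost with offsets for length and GC content (log2 fold change 0.01, adjusted p = 0.734, edgeR) and with total counts alone (0.06, adjusted p = 0.0508). Mcm5 was 1.17-fold higher in pretreated than in H2O2 cells and 1.23-fold higher than in control cells.

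Paralogs of the members were read in the same way. Of 17 paralogs 13 were tested, and 2 were called higher and 8 lower with H2O2 (median -0.15), 4 and 7 in pretreated against H2O2 cells (median -0.19), and 3 and 9 in pretreated against control cells (median -0.58). The share of these paralogs called higher in pretreated against H2O2 cells, 30.8%, was near the 32.4% of all genes. Plk1 and Plk4 belong to both this list and the cell cycle list. Ccng2, the paralog of Ccng1, stood at 30.4, 25.6 and 4.32 CPM in control, H2O2 and pretreated cells (5.92-fold lower in pretreated than in H2O2 cells, adjusted p = 1.03e-10, edgeR). Cdkn1b, which encodes p27, the relative of p21, stood at 134, 123 and 55.5 CPM (2.22-fold lower in pretreated than in H2O2 cells, adjusted p = 1.32e-11, edgeR). Btg3 was 1.52-fold and Ppm1b 1.43-fold higher in pretreated than in H2O2 cells, and 1.76-fold and 1.13-fold higher than in control. With H2O2 alone, Btg3 and Ccni were 1.16-fold and 1.12-fold higher, and Trp53inp2 and Tob2 were 1.48-fold and 1.31-fold lower. With offsets for length and GC content Ccni lost its call (log2 fold change 0.05, adjusted p = 0.195, edgeR), and Btg3 was at 0.12 and Tob2 at -0.23, both still called (adjusted p = 0.037 and 0.000705). For the gene pairs Cdkn1a and Cdkn1b, and Ccng1 and Ccng2, 1 gene was called higher and the other lower in pretreated against H2O2 cells. The 4 paralogs called higher there were Btg3, Trp53inp2, Ppm1a and Ppm1b, the direction of Btg2, Trp53inp1 and Ppm1d. The 7 called lower also included Plk1, Ccni, Btg1, Tob1 and Tob2.

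The genes with a pattern most like 3 of the members were found by the distance between pairs of log2 fold changes, H2O2 against control and pretreated against H2O2, among 9275 genes of at least 10 CPM on average. Trp53 had Scamp3, Rsu1 and Sac3d1 at distances of 0.009, 0.009 and 0.011, and 3966 of the 9265 other genes lay within 0.5. For Mdm2 the nearest was Syt7, a synaptotagmin, at 0.452, followed by Sesn2 at 0.514 and Hmox1, heme oxygenase 1, at 0.556. Hmox1 stood at 85 CPM in control, 128 in H2O2 and 1527 in pretreated cells, and Syt7 at 3.15, 2.66 and 27.4 CPM. Only 1 of the 9265 other genes lay within 0.5 of Mdm2. For Cdkn1a none did, and the nearest were Inka2 (0.571), Rnf225 (0.931) and Mroh2a (0.968). The distance was not scaled, and fewer genes had changes as large as those of Mdm2 and Cdkn1a than as small as those of Trp53. The counts of neighbours thus also depend on the size of the changes and do not show that a pattern is unusual beyond its size.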

How the data were processed

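RNA of 9 HEI-OC1 libraries (3 groups of 3) was sequenced as 150 bp paired-end, strand-specific poly(A) libraries, per the labels' protocols. The authors deposited a table of estimated counts per gene and a table of FPKM with the same counts. Which aligner and counter were used is not given in the sources used here. The submitters' processing notes name the human build hg38, whereas the gene identifiers and coordinates in the files are those of mouse GRCm38 (30318 genes found in GENCODE M21, 99.5% with the same start), and the mouse coordinates are used. Counts showed an excess of multiples of 4 (9836 values equal to 4 against 4842 equal to 3), so they were treated as estimated counts and rounded, and their precision in reads is not known. The length implied by counts and FPKM follows the union of annotated exons.

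From the deposited counts, edgeR 4.0.16 (R 4.3.3) fitted all 9 libraries with 1 mean per group, TMM scaling, filterByExpr and the quasi-likelihood test, adjusted by Benjamini-Hochberg over 18092 genes. SE is the absolute log2 fold change divided by the root of F, and 95% intervals are unadjusted. The intervals use a normal quantile of this SE and are narrower than the F test itself would give. Calls rest on the adjusted p and not on the intervals. CPM uses TMM library sizes. Alternatives used DESeq2 1.42.0, limma 3.58.1 on log2(FPKM + 1) or log2(FPKM + 0.1), other scalings and filters, offsets, a replicate block and each library left out. Offsets for length used the length implied by counts and FPKM. Offsets for length and GC content used the length and GC content of the longest annotated transcript, so the 2 settings also differ in length. The fit was also run on simulated counts that held no trend with length or GC content. That run cannot show how such trends affect the calls, and its limit for passing was set after a result had been seen. The 10 members and all lists were chosen with earlier results of these data known. All members are named, and of each list up to 2 genes that moved most upwards and 2 downwards in a comparison, if called and of at least 1 CPM. One gene that this rule names is not reported here. The nearest 3 genes are named for Trp53, Mdm2 and Cdkn1a.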

Additional observations from a re-analysis of the deposited data

How the results depend on the processing

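Of 660 values of the members' log2 fold changes under 22 alternatives per comparison, 645 kept their direction and side of the threshold, 10 lost the call, 3 gained one and 2 reversed. The reversals were those of Mdm4 in H2O2 against control, from -0.26 to 0.16 with offsets for length and GC content and to 0.24 with offsets for length. Calls were lost for Trp53inp1 in H2O2 against control and for Mdm4 in pretreated against control, and gained for Mdm2 and Ppm1d in H2O2 against control. Among 2244 values of 34 list genes, 2169 kept both, 58 lost the call, 6 gained one and 11 reversed. With offsets for length and GC content the H2O2 against control log2 changes became -0.02 for Aurka and Bid, 0.06 for Cdkn1b, 0.10 for Mybl2, 0.02 for Pank1, 0.14 for Prkdc and 0.08 for Zmat3 (0.03 with offsets for length). Rpl5 became 0.04 in pretreated against H2O2, and Ep300 0.00 in pretreated against control (0.07 with offsets for length). The cause was not tested. Of 528 list counts, which leave out those of the paralog list, 21 moved over 1.5 times. With limma on log2(FPKM + 1) and log2(FPKM + 0.1), which tested 11936 genes, 3550 and 3540 genes were called higher in pretreated against H2O2 (5856 with edgeR), and 3685 and 3675 in pretreated against control (6088 with edgeR). The share of calls that were higher was 39.2% and 42.3% with limma after a filter at 1 FPKM, 53.2% and 54.1% with limma unfiltered, and 50.9% and 53.3% with edgeR. For the Mdm2 ratios, offsets were added after seeing the data. With offsets for length and GC content and with those for length, the log2 difference of Mdm2 to Mdm4 between H2O2 and control was -0.17 and -0.09 (0.32 in FPKM), between pretreated and H2O2 3.56 and 3.50 (3.32), and between pretreated and control 3.40 and 3.41 (3.64). In the same order, that of Mdm2 to Cdkn1a was -1.72 and -1.70 for H2O2 against control (-1.86), and -0.78 and -0.82 for pretreated against control (-0.91). That of Mdm2 to Trp53 was -0.40 and -0.23 for H2O2 against control (-0.32), 3.97 for pretreated against H2O2 with length and GC content (3.88), and 3.61 for pretreated against control with length (3.55). Allowing no mismatch left 5 instead of 8 member windows with a p53 decamer. Replicate numbers did not pair the libraries (correlations of deviations -0.054 to 0.0951). With the replicate number as a block 8603, 11322 and 11181 genes were called in the 3 comparisons, against 8817, 11511 and 11424 without it, and no call of a member changed.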
